A study of Mus musculus with 2 samples.

Results

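Neutrophil-lineage cells is the name used here for cells rich in granulocyte transcripts in plastic-adherent cultures of mouse bone marrow. They were taken as the cells with at least 500 genes, at least 1000 unique molecular identifiers (UMIs, 1 per captured mRNA molecule) and at most 15% mitochondrial UMIs, in which S100a8, S100a9, Ngp, Camp, Ltf and Lcn2 together made up at least 2% of all UMIs. By this rule 802 of 13677 cells were neutrophil-lineage, 389 of 5506 in the cKO library and 413 of 8171 in the WT library. The 802 cells were thus chosen by the levels of the 6 genes, which are given here as a description only. Of them, 652 lay in clusters led by genes of granulocyte stages or of the cell cycle. The other 150 lay in 2 clusters led by stromal or macrophage genes. Finer clustering also set apart 59 cells led by monocyte genes (below).

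The cKO library came from Prrx1-Cre+/-; Slc31a1flox/flox mice and the WT library from Slc31a1flox/flox littermates without Cre, all on a C57BL/6J background. The labels call the cultured cells mesenchymal stem cells and give both libraries the same batch. Both groups therefore carry the floxed allele of Slc31a1, the main copper importer of the cell surface. Prrx1-Cre is active in limb mesenchyme, and the labels name mesenchymal cells as the site of the deletion; neutrophil-lineage cells are blood cells and no target of this Cre by the labels. Marrow of femurs and tibias was plated in medium with 10% fetal bovine serum, cells that had not attached were washed away after 48 h, and no drug or osteogenic stimulus was given. Age, sex and the number of mice behind each library are not given in the sources used here. Each genotype has 1 library, so no difference below has a replicate check, and every interval covers counting error only.

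Neutrophils arise from granulocyte-monocyte progenitors through a fixed order of steps. Promyelocytes fill azurophil granules with serine proteases and myeloperoxidase, myelocytes still divide while they make specific granule proteins such as lactoferrin and cathelicidin, and later band and segmented cells stop dividing and make gelatinase granules and chemokine receptors. S100A8 and S100A9 pair to form calprotectin, a major protein of the neutrophil cytosol.

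Markers the rule did not use bore out the label for part of the cells. Elane, Mpo, Prtn3, Ctsg and Ms4a3, the 5 genes of the marker list azurophil granule (stage 1), summed to 3159 CPM (UMIs of a gene per 1000000 UMIs of the cells summed) in the cKO cells and 3041 CPM in the WT cells, with none at 0. In macrophages, taken as other cells with at least 0.5% of UMIs from 6 macrophage genes, the same list summed to 12.5 CPM in cKO and 9.2 CPM in WT. Elane, which encodes neutrophil elastase and is a marker of the lineage outside the rule, reached 1060 CPM in cKO cells and 908 CPM in WT cells, against 5.11 and 2.27 CPM in the cKO and WT macrophages. These sums were carried by few cells. Elane, Mpo, Prtn3 and Ctsg together held at least 0.5% of UMIs in 82 of the 802 cells. Every marker gene of erythroid cells, basophils and mast cells was below 10 CPM in both libraries. All 12 macrophage markers and 7 of 10 mesenchymal markers, however, reached 10 CPM in at least 1 library.

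Depth differed between the libraries. The median neutrophil-lineage cell held 9049 UMIs in cKO and 6369 in WT, and the summed counts were 4615568 UMIs in cKO and 3418701 in WT. The 6 genes took a median of 22.4% of a cell's UMIs in cKO and 19.5% in WT. No barcode of these cells occurred in both libraries.

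Cells just above the 2% limit differed from the rest. Between 2 and 3% there were 17 cKO and 59 WT cells, and between 1 and 2%, just outside, 28 cKO and 113 WT cells. When the neutrophil-lineage cells were clustered, 83 cells (22 cKO, 61 WT) formed a cluster led by the stromal genes Ebf1, Gpc6 and Slit2, and 67 cells (24 cKO, 43 WT) formed a cluster led by the osteoclast and macrophage genes Acp5, Tnfrsf11a and Gpnmb. In these 2 clusters the 6 genes held medians of 2.85 and 4.64% of UMIs, and 30 of 83 and 58 of 67 cells were among those with the highest doublet scores. Of the cells between 2 and 3%, 10 of 17 in cKO and 36 of 59 in WT lay in the stromal cluster, and 2 and 18 in the macrophage cluster. The other 652 cells (343 cKO, 309 WT) fell into 5 clusters with a median share between 17.0 and 27.4%, called the stage clusters below. The shares, the gene counts and the ratios of the genes described most fully are also given for these 652.

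**Figure D1:**
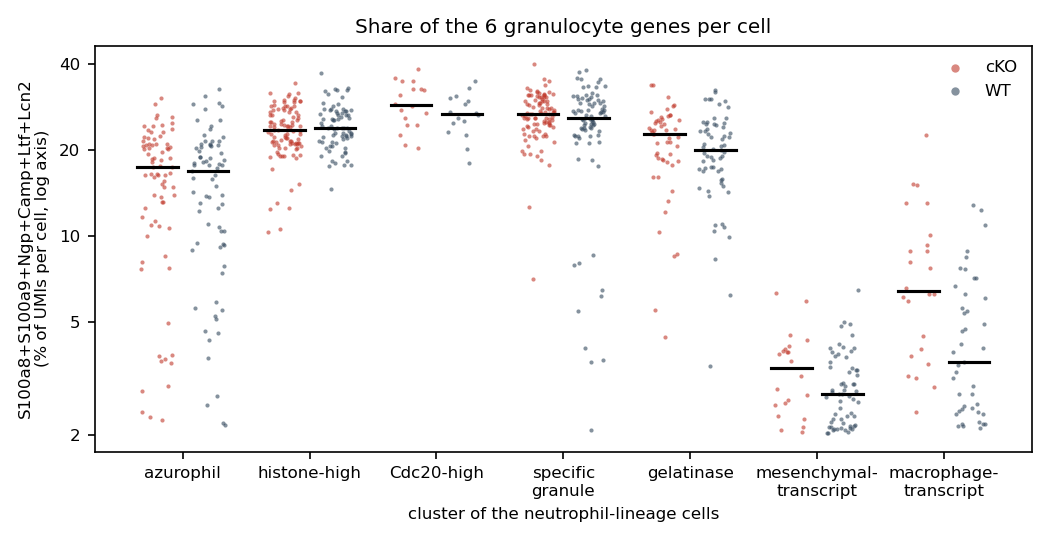
Each point is a neutrophil-lineage cell, with the share of its UMIs from the 6 genes on a log axis, by cluster, cKO left and WT right, and a bar at the median. The 5 stage clusters have medians from 16.8 to 28.7%, the 2 clusters with transcripts of other cells from 2.78 to 6.40%.

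The stage clusters were placed in the textbook order of granulopoiesis. The azurophil cluster (77 cKO and 73 WT cells) was led by Mpo, Ctsg, Elane and Prtn3, which encode myeloperoxidase and the 3 serine proteases cathepsin G, elastase and proteinase 3. It was a mixed cluster, and finer clustering (below) moved 46 of its cells to a group led by monocyte genes. In the azurophil cluster these 4 genes held a median of 0.35% of UMIs per cell in cKO and 0.28% in WT. Elane was at 3435 CPM there over both libraries, at 204 CPM in the histone-high cluster, at 179 CPM in the Cdc20-high cluster, at 14.9 CPM in the specific granule cluster and at 0 of 538722 UMIs in the gelatinase cluster, which allows up to 5.57 CPM (3 counts). Mpo was at 2080 CPM in the azurophil cluster and 13.4 CPM in the histone-high cluster, and at most 3.71 CPM in the other 3. Ms4a3, a marker of granulocyte-monocyte progenitors, had 613, 187, 184, 33.6 and 0 CPM along the same 5 clusters. The order of the clusters is that of known stages and was not computed as a trajectory, and the cluster genes are a description, since the same counts made the clusters. Clusters were named in turn by the highest summed level of chosen genes. These were Elane, Mpo, Prtn3 and Ctsg for azurophil, Retnlg, Mmp8 and Mmp9 for gelatinase, Cdc20, Cenpf and Ccnb1 for Cdc20-high and Mki67 for histone-high. The cluster left was called specific granule. High levels of the naming genes in the named clusters are therefore no support for the order.

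Cells with cell cycle transcripts made up 2 clusters beyond the azurophil cells. The histone-high cluster (100 cKO and 74 WT cells) was led by Esco2, a cohesin acetyltransferase, and by replication-dependent histone genes, and the Cdc20-high cluster (18 cKO and 16 WT cells) by Cdc25b, Cenpf, Cdc20 and Ccnb1 of mitosis. Mki67, the Ki-67 proliferation marker, was at 742 CPM in the azurophil cluster, 1135 CPM in the histone-high cluster and 978 CPM in the Cdc20-high cluster. It was at 43.8 CPM in the specific granule cluster and 20.4 CPM in the gelatinase cluster. Of the 24 G2 and M phase genes, 16 were highest in the Cdc20-high and 8 in the histone-high cluster, while of 16 measured replication genes 10 were highest in the azurophil and 6 in the histone-high cluster. Pcna, the replication clamp, was at 353 and 313 CPM in the azurophil and histone-high clusters and at 29.8 CPM in the Cdc20-high cluster.

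Camp, the cathelicidin gene, came on within the cycling cells. It was at 591 CPM in the azurophil cluster, 14512 CPM in the histone-high cluster, 23290 CPM in the Cdc20-high cluster, 19173 CPM in the specific granule cluster and 7343 CPM in the gelatinase cluster. Ltf, the lactoferrin gene, came later, at 530, 5407, 7937, 14924 and 10306 CPM along the same clusters, so its highest level lay in a cluster with little Mki67. The specific granule cluster (96 cKO and 83 WT cells) was led by Tcp11l2, AA467197, Plbd1 and Ltf. Cybb, the catalytic subunit of the NADPH oxidase that makes superoxide, followed Ltf, with 710 CPM in the azurophil and 2550 CPM in the specific granule cluster. Fcnb, the ficolin B gene, had the opposite course, at 756 CPM in the azurophil and 63.1 CPM in the gelatinase cluster. Of the 16 specific granule genes, 11 were highest in the specific granule cluster, 4 in the Cdc20-high cluster and 1 in the azurophil cluster.

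The gelatinase cluster (52 cKO and 63 WT cells) was the last in the order of known stages. Retnlg, a resistin-like gene of late neutrophils, was at 5985 CPM there and at 84.0 CPM in the specific granule cluster. Mmp8, the neutrophil collagenase, was at 2090 against 53.2 CPM, and Mmp9, gelatinase B, at 1802 against 196 CPM. Cxcr2, the chemokine receptor that draws neutrophils out of the marrow, stepped up through the clusters, at 43.4, 54.7, 84.0, 152 and 442 CPM. Csf3r, the G-CSF receptor, was at 180 CPM in the azurophil and 627 CPM in the gelatinase cluster. Il1b, which encodes interleukin-1 beta, had 43 of its 49 UMIs over the stage clusters in the gelatinase cluster. All 11 gelatinase and secretory vesicle genes with at least 50 CPM in some stage cluster and 15 of 16 late surface and effector genes were highest here. Among the 11 were Retnlg, Mmp8 and Mmp9, which named the cluster.

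**Figure D2:**
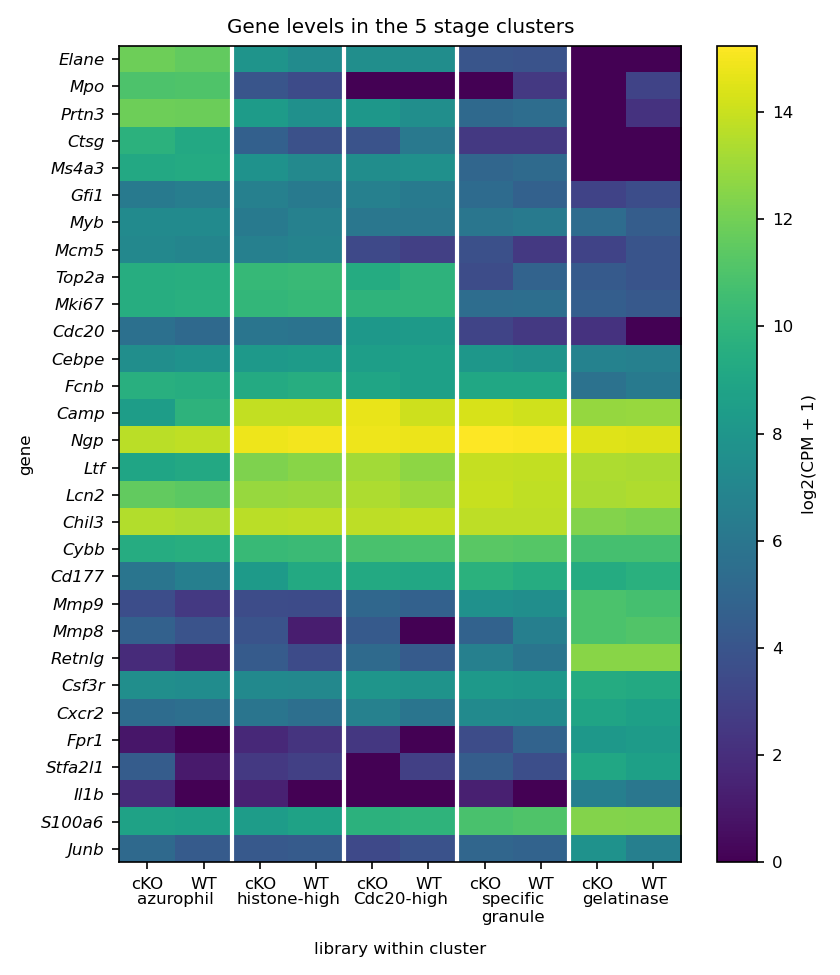
Colour gives log2(CPM + 1) of 30 genes in the 5 stage clusters, with the cKO library left of the WT library in each pair. The bright block moves down the rows from Elane and Mpo at left, over Camp, Ngp and Ltf in the middle, to Mmp8, Retnlg and Il1b at right, in both libraries.

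**Figure D3:**
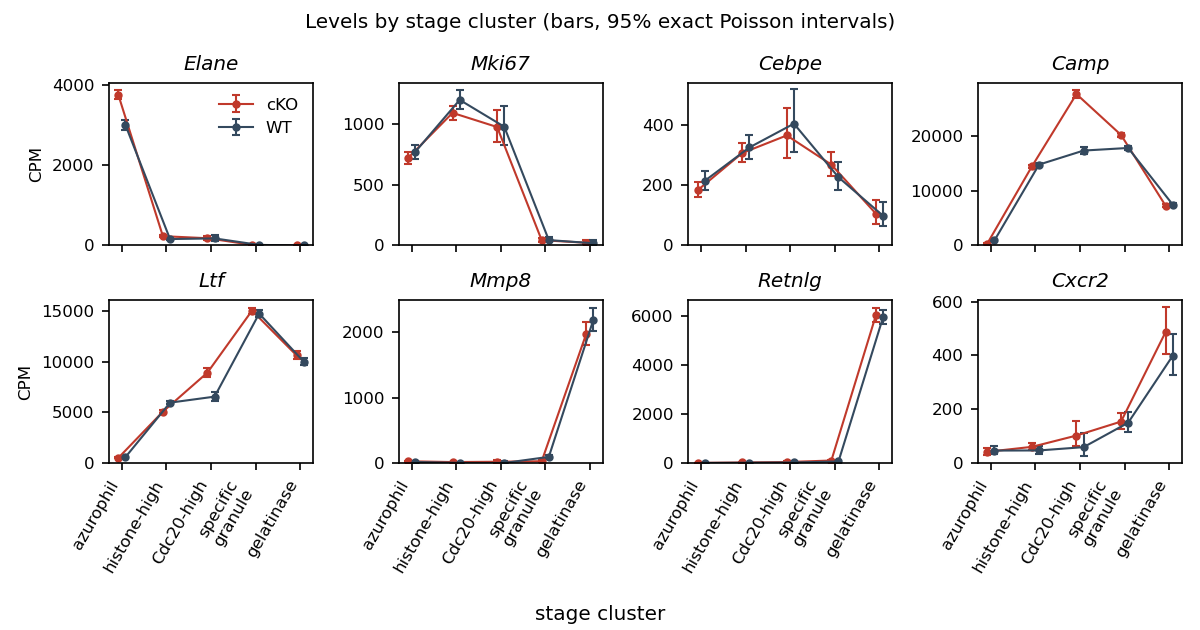
CPM of 8 genes across the stage clusters in the cKO (red) and WT (dark) libraries, with 95% exact Poisson intervals as bars. Elane is highest in the azurophil cluster, and Mki67 is high in the first 3 clusters. Over both libraries Camp is highest in the Cdc20-high cluster. Ltf is highest in the specific granule cluster, followed by the gelatinase cluster. Mmp8, Retnlg and Cxcr2 are highest in the gelatinase cluster.

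The promoters of a pair of genes from each granule class are shown because these genes switch on in separate clusters. They are the 250 bases upstream of each RefSeq gene start (GRCm38.p6), 5′ to 3′ on the gene's strand, and lie on chr10:79886062-79886311, plus strand for Elane, chr11:87793534-87793783, plus strand for Mpo, chr9:109849457-109849706, minus strand for Camp, chr9:111019042-111019291, plus strand for Ltf, chr9:7558179-7558428, plus strand for Mmp8 and chr16:48872358-48872607, plus strand for Retnlg. Capitals mark matches to TTNNGNAA on either strand, a loose form of the motif of C/EBP factors, the family of Cebpa, Cebpb and Cebpe. The azurophil genes, with no match in this window:
Elane: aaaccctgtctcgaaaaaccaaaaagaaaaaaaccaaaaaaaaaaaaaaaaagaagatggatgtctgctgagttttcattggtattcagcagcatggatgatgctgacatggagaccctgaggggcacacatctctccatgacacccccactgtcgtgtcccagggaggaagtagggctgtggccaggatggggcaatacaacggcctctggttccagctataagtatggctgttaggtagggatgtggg
Mpo: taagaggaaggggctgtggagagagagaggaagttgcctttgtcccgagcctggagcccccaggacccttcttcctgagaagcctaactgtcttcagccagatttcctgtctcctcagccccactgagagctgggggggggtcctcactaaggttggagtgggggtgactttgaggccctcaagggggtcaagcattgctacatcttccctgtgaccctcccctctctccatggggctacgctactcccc
The specific granule genes, of which Ltf holds 2 matches and Camp none:
Camp: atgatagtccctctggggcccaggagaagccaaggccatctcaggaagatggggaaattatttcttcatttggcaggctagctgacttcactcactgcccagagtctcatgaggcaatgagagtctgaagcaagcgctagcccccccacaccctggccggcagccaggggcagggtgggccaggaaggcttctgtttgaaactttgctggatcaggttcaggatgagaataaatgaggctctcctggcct
Ltf: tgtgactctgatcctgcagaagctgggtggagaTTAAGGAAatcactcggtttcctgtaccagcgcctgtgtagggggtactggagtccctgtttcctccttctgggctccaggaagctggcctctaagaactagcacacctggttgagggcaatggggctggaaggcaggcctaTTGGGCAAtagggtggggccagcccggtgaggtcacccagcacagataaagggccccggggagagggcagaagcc
The gelatinase genes, with 2 matches in Mmp8 and 1 in Retnlg:
Mmp8: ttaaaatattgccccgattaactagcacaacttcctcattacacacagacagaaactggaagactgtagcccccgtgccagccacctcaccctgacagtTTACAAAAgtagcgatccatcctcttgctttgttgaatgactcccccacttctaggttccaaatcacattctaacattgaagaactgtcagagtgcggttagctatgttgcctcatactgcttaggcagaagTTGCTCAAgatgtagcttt
Retnlg: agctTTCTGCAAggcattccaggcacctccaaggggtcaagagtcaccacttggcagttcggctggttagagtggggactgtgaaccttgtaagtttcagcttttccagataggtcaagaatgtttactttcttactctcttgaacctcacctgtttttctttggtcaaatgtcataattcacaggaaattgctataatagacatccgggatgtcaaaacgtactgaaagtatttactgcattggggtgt
Of 32851 RefSeq promoter windows of the same length, 36.8% hold a match, against 3 of these 6, and a match is letters only and not a bound site.

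Transcription factor genes changed along the same order. Gfi1, a repressor needed for granulocyte fate, was at 80.9 to 89.4 CPM in the first 3 clusters, 33.6 CPM in the specific granule and 9.28 CPM in the gelatinase cluster. Cebpe, which drives specific granule genes, was at 197 CPM in the azurophil cluster, 382 CPM in the Cdc20-high cluster and 102 CPM in the gelatinase cluster. Myb, a progenitor factor, declined over the same span, with 155 CPM in the azurophil and 31.6 CPM in the gelatinase cluster. Junb and Fos, immediate early genes, were at 29.0 and 33.0 CPM in the azurophil cluster and at 154 and 173 CPM in the gelatinase cluster. All 9 measured immediate early genes and 11 of 13 NF-kB and cytokine genes were highest in the gelatinase cluster.

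Respiratory chain genes ran the other way. Of 33 measured genes of respiratory complex I, 29 were highest in the azurophil cluster, and of 13 of complex IV, 12 were. Ndufa4, a respiratory chain subunit, was at 472 CPM in the azurophil and 147 CPM in the gelatinase cluster. Cox4i1, a complex IV subunit, was at 675 against 388 CPM. The 15 measured glycolysis and hypoxia genes had no such common course. Of these, 4 were highest in the azurophil, 1 in the histone-high, 2 in the Cdc20-high, 3 in the specific granule and 5 in the gelatinase cluster. Slc7a11, the cystine importer that feeds glutathione synthesis, was highest in the gelatinase cluster, at 355 CPM. It was at 56.0 CPM in the specific granule and 14.5 CPM in the azurophil cluster. S100a6, a calcium-binding protein gene of the S100 family, was at 425 CPM in the azurophil and 5357 CPM in the gelatinase cluster. The cluster of highest level was the same in both libraries for 461 of 508 genes whose pooled level varied at least 5-fold over the stage clusters (90.7%), and for 1768 of all 2486 genes measured (71.1%).

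Finer clustering (Leiden resolution 1.0 in place of 0.5) split the first and last stages. The azurophil cluster gave 54 cells (26 cKO, 28 WT) with Elane at 6064 CPM, Mpo at 4389 CPM and Ltf at 26.2 CPM, and 50 cells that joined 38 histone-high cells (59 cKO and 29 WT in all) with Elane at 1074 CPM and Ngp, a specific granule gene, at 22557 CPM. A further 59 cells (26 cKO, 33 WT), 46 of them from the azurophil cluster, were led by Ccr2, F13a1 and Ms4a6c, genes of the monocyte lineage, with Ccr2 at 252 CPM and F13a1 at 752 CPM. These cells still held S100a8 at 62181 CPM and Ngp at 15119 CPM, and Klf4, a factor of monocyte fate, was at 95.7 CPM in them and not above 41.4 CPM in any other. The gelatinase cluster gave 47 of 50 cells (25 cKO, 25 WT) with Ltf at 17844 CPM, Retnlg at 748 CPM and Il1b at 0, and 68 cells (30 cKO, 38 WT) with Ltf at 3942 CPM, Retnlg at 10490 CPM, Cxcr2 at 565 CPM and Il1b at 149 CPM. A last group of 23 cells (16 cKO, 7 WT) was led by Olfm4, a specific granule gene known to mark a subset of neutrophils, at 4782 CPM.

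The targeted gene was low in neutrophil-lineage cells of both genotypes. Slc31a1 was at 25.6 CPM in cKO and 31.9 CPM in WT cells, a ratio of 0.802 (95% interval 0.613 to 1.05). Over the stage clusters it was at 25.0 CPM in cKO and 23.0 CPM in WT, a ratio of 1.09 (0.770 to 1.54), and it varied between 19.4 and 30.8 CPM from stage to stage. In mesenchymal cells, taken as other cells with at least 2% of UMIs from 4 matrix genes, where the deletion was directed, it was at 15.1 CPM in cKO and 47.8 CPM in WT. Of 17 copper genes 11 reached 10 CPM, and 3 of these had a ratio above 1 and 8 below it, with a median log2 ratio of -0.17. Over the stage clusters 7 of 9 were above 1 and 2 below it, with a median of 0.04. Of all genes over 10 CPM, 45.3% were higher in cKO by any amount and 54.7% lower, and over the stage clusters 48.6 and 51.4%. Atox1, the copper chaperone of the secretory pathway, was at 205 CPM in cKO and 213 CPM in WT, and Slc31a2, a paralogue of the importer, at 66.1 and 55.0 CPM.

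Neutrophil-lineage cells were a larger share of the cKO library. They were 7.07% of cells in cKO (95% exact binomial interval 6.40 to 7.77) and 5.05% in WT (4.59 to 5.55). Without the 2 clusters with transcripts of other cells, the shares were 6.23% in cKO (5.61 to 6.90) and 3.78% in WT (3.38 to 4.22). Shares of 1 library are tied to those of all other cells in it, and the mesenchymal cells numbered 475 of 5506 in cKO and 2041 of 8171 in WT, so more neutrophil-lineage cells and fewer of the rest cannot be told apart.

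The make-up by stage was given by ranges of granule transcripts, in the order azurophil (Elane, Mpo, Prtn3 and Ctsg at least 0.5% of UMIs), then specific granule (Ngp, Camp and Ltf at least 2%), then S100a8/S100a9 (the rest). The azurophil range held 8.48% of cKO and 11.9% of WT cells, the specific granule range 69.7 and 58.1%, and the S100a8/S100a9 range 21.9 and 30.02%. Over the 5 stage clusters the cKO and WT shares were 9.62 and 11.003%, 75.8 and 74.8%, and 14.6 and 14.2%, and their intervals overlapped in each range. By cluster, the 343 cKO and 309 WT cells divided into 22.4 and 23.6% azurophil, 29.2 and 23.9% histone-high and 5.25 and 5.18% Cdc20-high. The specific granule cluster held 28.0 and 26.9% and the gelatinase cluster 15.2 and 20.4%, and the intervals overlapped in each cluster. Of the cells of the S100a8/S100a9 range, 35 of 85 in cKO and 80 of 124 in WT lay in the clusters with transcripts of other cells. The ranges also cut across the stage clusters. Of the azurophil cluster, 32 cKO and 32 WT cells lay in the azurophil range. Another 24 and 21 lay in the specific granule range, and 21 and 20 in the S100a8/S100a9 range. Of the gelatinase cluster, 29 and 42 cells lay in the specific granule range and 23 and 21 in the S100a8/S100a9 range. These ranges are cuts of a score and not types, and 11 cKO and 7 WT cells lay near the azurophil cut and 27 and 33 near the specific granule cut (20% below to 25% above it).

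**Figure D4:**
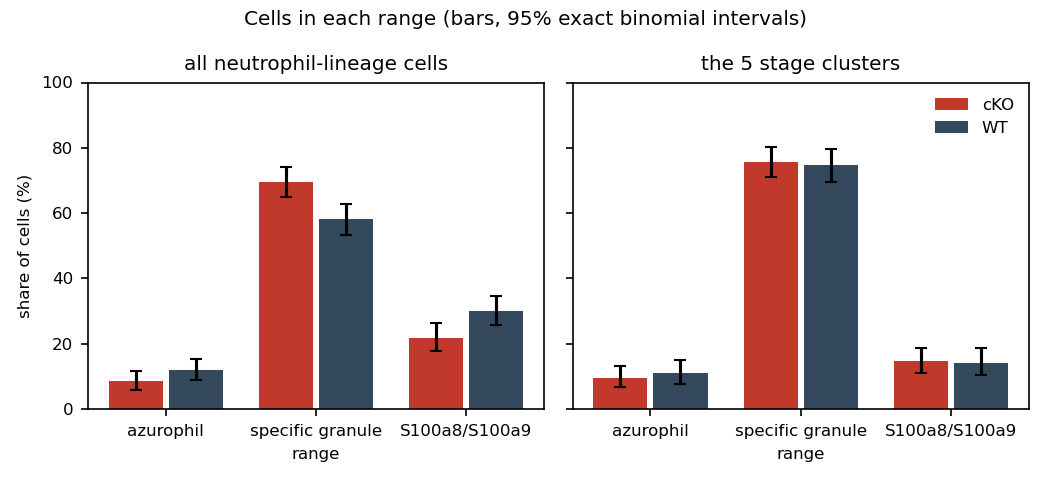
Bars give the share of cells in each range in the cKO (left of each pair) and WT libraries, with 95% exact binomial intervals, for all 802 cells and for the 652 of the stage clusters. The specific granule bars stand at 69.7 and 58.1% over all cells and at 75.8 and 74.8% over the stage clusters.

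Few genes differed between the genotypes by 1.5-fold or more. Of 3748 genes that reached 50 CPM in at least 1 library, 11 were at least 1.5-fold higher in cKO (0.293%) and 50 at least 1.5-fold lower (1.33%), and the median log2 ratio of all was -0.02. Over the stage clusters the counts were 6 of 3539 higher (0.170%) and 29 lower (0.819%). Of the 50 lower genes, 44 were at least 3-fold higher in the macrophage or mesenchymal cells than in the neutrophil-lineage cells, as were 6 of the 11 higher genes and 509 of all 3748 (13.6%). Of the lower genes, 39 were below the 50 CPM floor once the 2 clusters were left out. Both counts shared 2 higher and 6 lower genes. By any amount, 46.2% of genes over 50 CPM were higher in cKO and 53.8% lower, and 49.2 and 50.8% over the stage clusters.

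The 6 genes that chose the cells are given as a description, and 3 azurophil genes outside the rule lay on either side of a ratio of 1. S100a8 was at 57275 CPM in cKO and 57662 CPM in WT, a ratio of 0.993, and S100a9 at 75928 and 72318 CPM, a ratio of 1.05. The cKO to WT ratio was 1.04 for Ngp, 1.01 for Ltf and 1.09 for Lcn2, the siderophore-binding lipocalin 2. Camp was at 9018 CPM in cKO and 7630 CPM in WT, a ratio of 1.18 (1.16 to 1.20), and 1.12 over the stage clusters, but within the azurophil cluster at 351 and 918 CPM, a ratio of 0.383 (0.339 to 0.432), and within the Cdc20-high cluster at 27556 and 17274 CPM. Elane was at 1060 CPM in cKO and 908 CPM in WT, a ratio of 1.17 (1.12 to 1.22), and 1.22 over the stage clusters. Ctsg, cathepsin G, was at 243 CPM in cKO and 164 CPM in WT, a ratio of 1.48 (1.33 to 1.64), and at 872 and 586 CPM in the azurophil cluster. Over the stage clusters the Ctsg ratio was 1.41, and with the limit of the 6 genes at 5% its log2 ratio was -0.02. Mpo had 539 CPM in cKO and 629 CPM in WT, a ratio of 0.857 and of 0.938 over the stage clusters, and its log2 ratio was 0.21 with each range weighted equally and 0.09 without the highest doublet scores.

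Mmp8, Retnlg and Mmp9 were lower over all cKO cells. Mmp8 was at 133 CPM in cKO and 200.1 CPM in WT, a ratio of 0.666 (0.596 to 0.744), and Retnlg at 370.3 and 490.5 CPM, a ratio of 0.755 (0.705 to 0.808). Mmp9 was at 161 CPM in cKO and 218 CPM in WT, a ratio of 0.736 (0.664 to 0.816), and a single WT cell held 21.4% of its WT UMIs. Over the stage clusters the ratios were 0.638 for Mmp8, 0.718 for Retnlg and 0.851 for Mmp9, which was at 99.6 CPM in cKO and 501 CPM in WT in the cluster with macrophage transcripts. Within the gelatinase cluster Mmp8 was at 1980 CPM in cKO and 2197 CPM in WT, a ratio of 0.901 (0.8003 to 1.02). Retnlg there had a ratio of 1.01 (0.946 to 1.09) and Mmp9 1.13 (0.996 to 1.29). Within the specific granule cluster Mmp8 was at 26.4 CPM in cKO and 93.5 CPM in WT, a ratio of 0.282 (0.150 to 0.5096), while Retnlg was at 99.4 and 60.8 CPM. Of 10 gelatinase and secretory vesicle genes over 10 CPM, the ratio was above 1 for 2 and below it for 8, of which 2 were past 1.5-fold (background of genes over 10 CPM, 3.98%), with a median log2 ratio of -0.09. Within single clusters most were above 1, at 6 of 7 in the azurophil, 5 of 8 in the histone-high and 7 of 10 in the Cdc20-high cluster. The count was 7 of 11 in the specific granule and 10 of 12 in the gelatinase cluster (median 0.15). Of 18 late surface and effector genes over all cells, 13 were above 1 and 5 below it (45.3% of all genes above 1), with a median of 0.07.

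A few genes were higher in cKO over all cells. Cebpb, the C/EBP factor of emergency granulopoiesis, was at 195 CPM in cKO and 139 CPM in WT, a ratio of 1.40 (1.26 to 1.57), and 1.52 (1.34 to 1.74) over the stage clusters. In the azurophil cluster it was at 263 CPM in cKO and 157 CPM in WT, and in the gelatinase cluster at 324 and 128 CPM. It was also higher in the cKO macrophages, at 269 CPM against 168 CPM in WT, and in the mesenchymal cells, at 129 against 91.3 CPM. Junb had a log2 ratio of only 0.18 over all cells, and between 1.04- and 1.42-fold under the alternatives. In the gelatinase cluster Junb was at 215 CPM in cKO and 95.03 CPM in WT, a ratio of 2.26 (1.40 to 3.75), and at 258 against 165 CPM in the macrophages. Slc7a11 was at 50.9 CPM in cKO and 28.7 CPM in WT, a ratio of 1.78 (1.40 to 2.27), and 1.69 over the stage clusters, and at 479 and 234 CPM in the gelatinase cluster. In macrophages Slc7a11 was at 11.3 CPM in cKO and 5.37 CPM in WT, and in mesenchymal cells at 14.2 and 15.5 CPM. Ncf4, a regulatory subunit of the NADPH oxidase, was at 260 CPM in cKO and 200.4 CPM in WT, a ratio of 1.30 (1.18 to 1.43), while Cybb had a ratio of 1.01.

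In the azurophil cluster all 4 monocyte and dendritic genes over 10 CPM had a cKO to WT ratio above 1, with a median log2 ratio of 0.90. None of 2 did in the histone-high or the gelatinase cluster, 1 of 2 did in the Cdc20-high cluster (median -1.09) and 1 of 3 in the specific granule cluster (median -1.17). Summed over the stage clusters all 4 were above 1 (48.6% of all genes over 10 CPM), 2 of them past 1.5-fold (background 2.14%), with a median log2 ratio of 0.73. Over all cells 3 of 4 were above 1 (45.3% of all genes over 10 CPM), with a median of 0.20. The counts within single clusters are given without a share over all genes. Other lists were also higher in the azurophil cluster of cKO. There 9 of 11 gelatinase and late genes (median 0.52) and 8 of 9 immediate early genes (median 0.36) were above 1. Of 10 macrophage genes in it, 7 were below 1 (median -0.53). The finer group led by Ccr2 and F13a1, with 46 of its 59 cells from the azurophil cluster, held 26 cKO and 33 WT cells. Ccr2, the receptor by which monocytes leave the marrow, was at 30.4 CPM in cKO and 14.9 CPM in WT over the stage clusters, a ratio of 2.04 (1.39 to 3.04). Its UMIs lay in the azurophil cluster above all, at 90.9 CPM in cKO and 42.5 CPM in WT, and a single cell held 24.6% of all its UMIs in cKO and 39.2% in WT. F13a1, the coagulation factor XIII subunit of monocytes, was at 329 CPM in cKO and 201 CPM in WT in the azurophil cluster, but at 104 and 120 CPM over all cells. Clec4d, a C-type lectin of late neutrophils, was at 464 CPM in cKO and 260 CPM in WT in the gelatinase cluster. Fpr1, the formyl peptide receptor, was lower in cKO, at 18.8 CPM against 31.9 CPM in WT, a ratio of 0.591 (0.441 to 0.791) and of 0.564 over the stage clusters, while Cxcr2 and Csf3r had ratios of 1.07 and 1.02.

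The largest ratio rested on few cells. Stfa1, a stefin A protease inhibitor from a cluster of near-identical genes, was at 58.7 CPM in cKO and 7.02 CPM in WT, a ratio of 8.36 (5.50 to 13.3), with UMIs in 16 cKO and 3 WT cells. A single cKO cell held 31.4% of its cKO UMIs and a single WT cell 62.5% of its WT UMIs, and reads may be split among the copies. S100a4 was at 197 CPM in cKO and 87.5 CPM in WT, a ratio of 2.25 (1.97 to 2.57), but 1.31 (1.06 to 1.64) over the stage clusters. In the mesenchymal cells S100a4 was at 366 CPM in cKO and 164 CPM in WT. Ptprk and Map1b, at ratios of 1.62 and 1.60 over all cells, had ratios of 0.352 and 0.497 over the stage clusters. Tesk2, a kinase gene, was lower in cKO over all cells and over the stage clusters alike, at 51.8 CPM against 78.4 CPM in WT, a ratio of 0.661 (0.553 to 0.789).

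**Figure D5:**
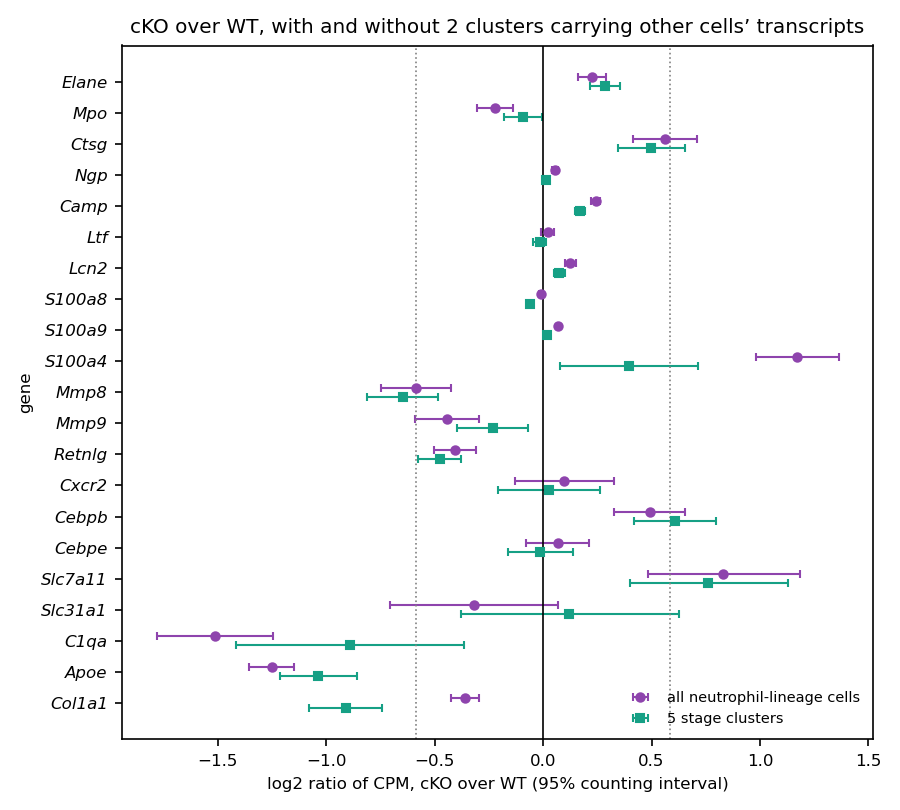
Log2 ratio of CPM, cKO over WT, for 21 genes over all neutrophil-lineage cells (circles) and over the 5 stage clusters (squares), with 95% counting intervals and dotted lines at 1.5-fold. Ngp, Ltf, S100a8 and S100a9 lie near 0, Cebpb and Slc7a11 to the right in both, and C1qa, Apoe and Col1a1 to the left, with S100a4 moving towards 0 over the stage clusters.

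Genes of macrophages were among those with the lowest ratios. C1qa, a complement subunit made by macrophages, was at 36.8 CPM in cKO and 105 CPM in WT, a ratio of 0.351 (0.291 to 0.422). Without the 2 clusters with transcripts of other cells it was at 15.9 CPM in cKO and 29.5 CPM in WT, a ratio of 0.540 (0.374 to 0.775), below the floor of 50 CPM and so no longer counted among the lower genes. Apoe was at 252 CPM in cKO and 601 CPM in WT, a ratio of 0.420 (0.390 to 0.451), and 0.487 over the stage clusters. All 12 macrophage markers were lower in the cKO cells, 11 of them past 1.5-fold (background 3.98%), and the list summed to 636 CPM in cKO and 1412 CPM in WT. The list was lower in cKO within each stage cluster as well, between 293 and 438 CPM in cKO and between 439 and 768 CPM in WT. Of 7 measured mesenchymal markers, all were lower in cKO, 1 past 1.5-fold over all cells and 7 over the stage clusters (background 3.83%), where Col1a1, the type I collagen gene, was at 146 CPM in cKO and 273 CPM in WT. In the macrophages themselves C1qa was at 1745 CPM in cKO and 1647 CPM in WT. The part of RNA from other cells in the differences above was not tested. Acp5, an osteoclast phosphatase, had a ratio of 0.393, and a single WT cell held 95.6% of its WT UMIs.

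By gene list, cell cycle, oxidase and respiratory genes had medians within 0.12 of 0. The median log2 ratio was 0.11 for the 24 G2 and M phase genes, of which 19 were higher in cKO, and -0.02 for 18 measured replication genes, of which 6 were higher. Of all genes over 10 CPM, 45.3% were higher. Over the stage clusters 17 of the 24 and 6 of the 18 were higher, against 48.6% of all genes. Ube2c, a mitotic ubiquitin-conjugating enzyme, was at 246 CPM in cKO and 202 CPM in WT, and Mcm7, of the replicative helicase, at 77.8 and 94.2 CPM. The median log2 ratio over all cells was 0.12 for 16 specific granule genes, -0.04 for 9 azurophil genes, 0.07 for 17 transcription factors, 0.10 for 16 antioxidant genes, 0.07 for 37 complex I genes and -0.01 for 17 complex IV genes. Past 1.5-fold, 1 transcription factor and 2 antioxidant genes were higher (background 1.67%), and over the stage clusters 4 and 2 (background 2.14%). The interferon list had 5 genes over 10 CPM of 19, with a median of -0.20, and the median over all 8837 genes over 10 CPM was -0.03. Runx1, a factor of early haematopoiesis, was at 302 CPM in cKO and 379 CPM in WT, a ratio of 0.795 (0.736 to 0.858) and of 0.809 over the stage clusters, and was also lower in cKO macrophages, at 238 against 290 CPM in WT.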

How the data were processed

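Adherent marrow cells were profiled with the 10x Genomics Chromium 3' v3 kit, 1 library per genotype. The deposited matrices hold UMI counts per gene and barcode, made with Cell Ranger 7.1.0 per the file headers; mm10 (GRCm38) and Seurat are named in the submitters' processing notes. Intron counting is not given in these sources. The counts covered 32285 genes in 6140 cKO and 9125 WT barcodes (126031142 and 152398639 UMIs).

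Counts were summed over the cells of a library or cluster and divided by their total (CPM). Ratios use these sums with 95% conditional binomial intervals, levels 95% exact Poisson intervals and shares 95% Clopper-Pearson intervals. These cover counting error only, since cells are not replicates, and no test between genotypes was possible. Genes that reached 50 CPM in at least 1 library were read at 1.5-fold, and lists at a floor of 10 CPM with a prior of 1 CPM. Cells were clustered with scanpy 1.11.5 (2000 variable genes, 30 components, 15 neighbours, Leiden resolution 0.5, leidenalg 0.10.2), under Python 3.11.15 with scipy 1.17.1. Scrublet's automatic threshold marked 2 barcodes per library and had not worked, so doublets were kept, and the highest scores (0.8% per 1000 barcodes) were left out as an alternative. The formula of the ratio intervals was tested on simulated Poisson counts, and those of the level and share intervals were not.

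The neutrophil-lineage rule, the stages and the lists were chosen with earlier results of these data known. Named genes were the lineage markers, Slc31a1, the 12 highest and 12 lowest ratios, up to 4 genes per list and 10 per range; genes named for stages or as leading a cluster, and Ccr2, F13a1, Clec4d, Klf4 and Fpr1 among others, were added after their values were seen. Promoters came from a RefSeq table (GRCm38.p6). Some genes are not reported here.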

Additional observations from a re-analysis of the deposited data

Results flagged for a closer look

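Cells with azurophil transcripts but little of the 6 genes lay outside the neutrophil-lineage rule. In the cKO library 7 cells, and in the WT library 9 cells, had at least 0.5% of UMIs from Elane, Mpo, Prtn3 and Ctsg while the 6 genes held under 2%. They drew attention because they carry a granule signal in cells that the neutrophil-lineage comparisons above do not use. Their median depth was 21430 UMIs in cKO and 20380 UMIs in WT. Elane was at 2831 CPM in cKO and 3004 CPM in WT, and Mpo at 3243 and 4795 CPM. Kit, a receptor of early progenitors, was at 54.3 CPM in cKO and 141 CPM in WT, and Irf8, a factor of the monocyte branch, at 99.5 and 219 CPM. Of the 9 WT cells, 2 also passed the macrophage or mesenchymal limits, and none of the 7 cKO cells did.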

How the results depend on the processing

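No paired analysis was possible because each genotype has 1 library. Of 19 gene lists, 11 had a median ratio above 0, and between 9 and 14 under the alternatives. Values that moved are given here, and the cause was not tested. Neutrophil-lineage cells were 7.90% of cKO cells under the stricter cell filter (1000 genes, 2000 UMIs, 10% mitochondrial) and 6.44% of WT cells with the limit at 1%. With the limit at 5% they were 6.34% in cKO and 3.82% in WT, and without the 2 clusters with transcripts of other cells, chosen after seeing the data, 6.23 and 3.78%. The specific granule range held 64.0% of WT cells under the stricter filter, 45.6% of WT cells at 1%, 77.7% of cKO and 75.3% of WT cells at 5%, 75.0 and 64.4% without the highest doublet scores, 74.3 and 64.4% with stage cuts halved, 55.0 and 41.2% with cuts doubled, and 75.8 and 74.8% without the 2 clusters. The S100a8/S100a9 range held 23.3% of WT cells under the stricter filter, 26.4% of cKO and 44.3% of WT cells at 1%, 14.3 and 13.1% at 5%, 15.4 and 24.1% without the highest doublet scores, 12.6 and 21.1% with cuts halved, 38.8 and 53.3% with cuts doubled, and 14.6 and 14.2% without the 2 clusters. In the alternative by Leiden clusters its share was 11.8% of cKO and 25.2% of WT cells. That share was made up only of the 2 clusters with transcripts of other cells, and the gelatinase cluster was counted in the specific granule range. The azurophil range held 13.1% of cKO cells with cuts halved, 5.57% of WT cells with cuts doubled, 19.8% of cKO and 17.7% of WT cells by Leiden clusters, and 6.78% of WT cells at resolution 1.0. Genes past 1.5-fold numbered 6 higher and 77 lower with the limit at 1%, 23 and 203 with each cell weighted equally, 17 and 80 with each range weighted equally, 148 and 352 at a floor of 10 CPM, 1 and 17 at 100 CPM, and 6 and 29 without the 2 clusters. The lower count was 184 without the highest doublet scores and 33 without cells past the macrophage or mesenchymal limits. The log2 ratio of Acp5 turned to 2.95 under the stricter filter, 2.81 at 5% and 0.52 without the 2 clusters. That of Ptprk turned to -0.91 at 5%, -2.34 without the highest doublet scores, -0.88 with equal cells and -1.29 without the 2 clusters, and that of Map1b to -0.42, -1.98, -0.52 and -0.83 in the same settings. Another 26 of the 98 named genes, all under 1.5-fold over all cells, changed sign in at least 1 alternative, among them Ctsg, Mpo, Slc31a1, Ltf and S100a8, and 882 of the gene values under the alternatives stayed within their counting interval while 185 moved.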
